A study of Homo sapiens with 8 samples.

Results

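Imprinted genes are expressed mainly from the copy inherited from a single parent. The set described here comprised 38 genes with known or reported imprinting in human tissues, taken as the entries of the expression table that carry their symbols, out of 63816 entries in all. Where a symbol stood on several entries, the entry with the highest mean was used. RNA was sequenced from cells labelled Caco-2, a line established from a human colorectal adenocarcinoma that lacks Siglec-XII. The cells had been stably transfected with the empty plasmid pcDNA3.1 (4 samples) or with pcDNA3.1 carrying full-length SIGLEC12 (4 samples). Both groups were selected with the antibiotic G418, and each arose from a separate transfection. Whatever else differs between the selected populations and what Siglec-XII does cannot be told apart here. The sources do not settle whether the 4 samples of a group are separate cultures or technical libraries of the same RNA, so the errors and p-values given here measure the spread between these samples, which may be technical. The deposited values were log2(TPM + 1), where TPM (transcripts per 1e+06 transcripts) is a level corrected for transcript length and library size. The reads behind a value, and so the depth, are unknown.

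Imprints are set as DNA methylation at control regions in the egg or sperm and are kept through later cell divisions by zinc finger proteins that call DNA methyltransferases to the methylated copy. Many imprinted genes act in fetal and placental growth, where paternally expressed genes such as IGF2 tend to promote growth and maternally expressed genes such as CDKN1C and PHLDA2 tend to restrain it. They lie in clusters in which a non-coding RNA or an insulator decides which neighbours are on. A TPM value adds up both parental copies, so these data give levels and do not show which copy was expressed.

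SIGLEC12 itself was at 0.0795 ± 0.0342 TPM (SD, n = 4) with the empty vector and at 1667 ± 71.3 TPM (SD, n = 4) with Siglec-XII, so no sample went against its vector label. No library stood apart: correlations across genes were 0.979 to 0.984 within groups and 0.972 to 0.980 between them. Markers of the labelled tissue were checked. Of 15 colon epithelium markers, 3 passed the filter of 1 TPM in at least 4 samples (EPCAM at a mean of 553, CDX1 at 147 and CDX2 at 40.6 TPM), and FABP1, KRT20, PHGR1, SI and TFF3 were listed at 0 in all 8 samples. Of 22 trophoblast markers, 16 passed, led by XAGE2 at 767, GATA3 at 380 and HSD3B1 at 345 TPM, while CGB3, CGB5, CGB8, INSL4, GCM1 and LEP did not. Among those that passed, PSG3, ERVW-1, ERVFRD-1, PSG1, PLAC1 and CGA lay near the filter, with means of 0.785 to 1.47 TPM. The label as a colorectal line is therefore in doubt, and levels below are those of the cells labelled Caco-2. The summed trophoblast markers ran from 2357 to 2409 TPM with the empty vector and from 2212 to 2277 with Siglec-XII, and the summed colon markers from 710 to 736 and from 734 to 792. The part of these differences in the values below was not tested.

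Many imprinted genes start in stretches dense in CG dinucleotides, the sites of DNA methylation. RefSeq promoter windows (GRCh38.p14, 250 bases before to 50 after a start) were matched by symbol for 24 of the 38 genes. SLC22A18, IGF2, ZFAT, KCNQ1, ZIM2, DLX5, DLK1, PEG3, CDKN1C, KCNQ1OT1, SGCE, NNAT, PEG10 and PHLDA2 had no match. The windows of 3 expressed genes (H19, MEST and SNURF, whose window also serves SNRPN) and of 2 genes listed at 0 in every sample (NDN and NAP1L5) are shown 5′ to 3′ with each CG in capitals, because they differ widely in level and in CG content. MEST has several windows, of which the richest in CG is given.
H19, minus strand of chr11:2001217-2001516: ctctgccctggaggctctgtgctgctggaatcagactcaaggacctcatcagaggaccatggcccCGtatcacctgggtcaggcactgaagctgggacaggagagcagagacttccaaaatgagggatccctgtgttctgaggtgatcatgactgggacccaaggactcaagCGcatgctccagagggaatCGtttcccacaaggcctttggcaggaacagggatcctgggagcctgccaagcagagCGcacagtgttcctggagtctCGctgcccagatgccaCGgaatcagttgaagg
MEST, plus strand of chr7:130491835-130492134: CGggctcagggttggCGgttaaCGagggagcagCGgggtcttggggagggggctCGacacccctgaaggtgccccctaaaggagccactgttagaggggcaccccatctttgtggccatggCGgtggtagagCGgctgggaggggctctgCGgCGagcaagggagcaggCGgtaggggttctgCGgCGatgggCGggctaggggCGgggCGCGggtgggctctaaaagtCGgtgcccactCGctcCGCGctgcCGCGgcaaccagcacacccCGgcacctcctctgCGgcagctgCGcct
SNURF, plus strand of chr15:24954737-24955036: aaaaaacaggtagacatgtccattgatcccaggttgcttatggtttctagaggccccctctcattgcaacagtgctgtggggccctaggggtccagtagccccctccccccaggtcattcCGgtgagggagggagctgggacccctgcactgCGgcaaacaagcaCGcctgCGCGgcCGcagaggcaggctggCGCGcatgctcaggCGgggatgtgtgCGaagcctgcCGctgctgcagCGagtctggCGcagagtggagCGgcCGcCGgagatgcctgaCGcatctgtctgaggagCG
NDN, minus strand of chr15:23687256-23687555: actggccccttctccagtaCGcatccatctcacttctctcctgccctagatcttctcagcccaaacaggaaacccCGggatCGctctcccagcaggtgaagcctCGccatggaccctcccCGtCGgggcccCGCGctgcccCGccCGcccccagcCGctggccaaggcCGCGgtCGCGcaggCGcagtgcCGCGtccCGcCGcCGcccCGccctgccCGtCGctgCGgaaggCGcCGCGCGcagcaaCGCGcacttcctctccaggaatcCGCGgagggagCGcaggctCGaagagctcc
NAP1L5, minus strand of chr4:88697780-88698079: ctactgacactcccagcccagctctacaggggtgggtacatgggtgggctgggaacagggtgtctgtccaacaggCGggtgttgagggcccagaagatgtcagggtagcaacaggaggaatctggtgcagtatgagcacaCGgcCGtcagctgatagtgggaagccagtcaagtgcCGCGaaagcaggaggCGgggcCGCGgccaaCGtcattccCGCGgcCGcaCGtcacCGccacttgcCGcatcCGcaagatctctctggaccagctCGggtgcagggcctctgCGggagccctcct

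The H19 window held 6 CG dinucleotides, that of MEST 25, that of SNURF 18, that of NDN 35 and that of NAP1L5 18. These genes were picked to differ in level and in CG content, so no relation of CG content to level can be read from them. H19 had a mean of 469 TPM with the fewest, and NDN, with the most, was listed at 0. Taking the window richest in CG for each gene, the median was 28 for the 18 genes that passed the filter on levels, with a range of 6 to 49, and 21 for the 6 that did not, with a range of 6 to 39. The median over all symbols with a window was 16. The letters TGCCGC, the core recognised by ZFP57 when methylated, were searched on both strands. They occurred in the richest window of 12 of these 24 genes (50%), against 17.9% of the richest windows of all symbols. Among symbols with at least as many CG as the median imprinted gene the share was 33.4%, beside 6 of 12 for the imprinted genes. The 24 genes used 22 different windows, since SNRPN shares with SNURF and PLAGL1 with HYMAI. Both shared windows held the letters and were counted for each of their genes, which raises the share. A match is only a description of these letters.

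H19 and MEST also host microRNA hairpins. Their mature sequences are given with the seed (bases 2 to 8) in capitals, since H19 and MEST were among the most abundant genes of the set and no seed is shared among the 4.
hsa-miR-675-5p: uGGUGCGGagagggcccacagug
hsa-miR-675-3p: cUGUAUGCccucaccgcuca
hsa-miR-335-5p: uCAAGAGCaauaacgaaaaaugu
hsa-miR-335-3p: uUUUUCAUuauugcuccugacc
The separate entries of the hairpins, MIR675 and MIR335, were listed at 0 in all 8 samples. The libraries were not made from small RNA, so mature microRNAs were not measured.

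Which imprinted genes the cells labelled Caco-2 expressed was asked first. Of the 38 genes, 27 passed the filter, and 25 of these were at 1 TPM or more in all 8 samples. The mean level was 100 TPM or more for 6 genes, from 10 to under 100 for 8, from 1 to under 10 for 13 and under 1 for 11. Together they made up 7799 to 10202 of the 1e+06 TPM of a sample, of which IGF2 alone took 56.6% to 66.1%. In the order of mean levels of the 27 genes, the 8-sample ranges of 19 of the 26 pairs of neighbours overlapped. The 7 breaks lay below IGF2, GNAS, H19, BLCAP, SGCE, IGF2R and PHLDA2. Direct neighbours between these breaks, and those below PHLDA2, had ranges that overlapped across samples. Within each single sample, however, MEST lay above SNRPN, SNRPN above BLCAP, NLRP2 above GRB10 and GRB10 above IGF2R. The other overlapping neighbours did not keep their order in every sample.

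**Figure D1:**
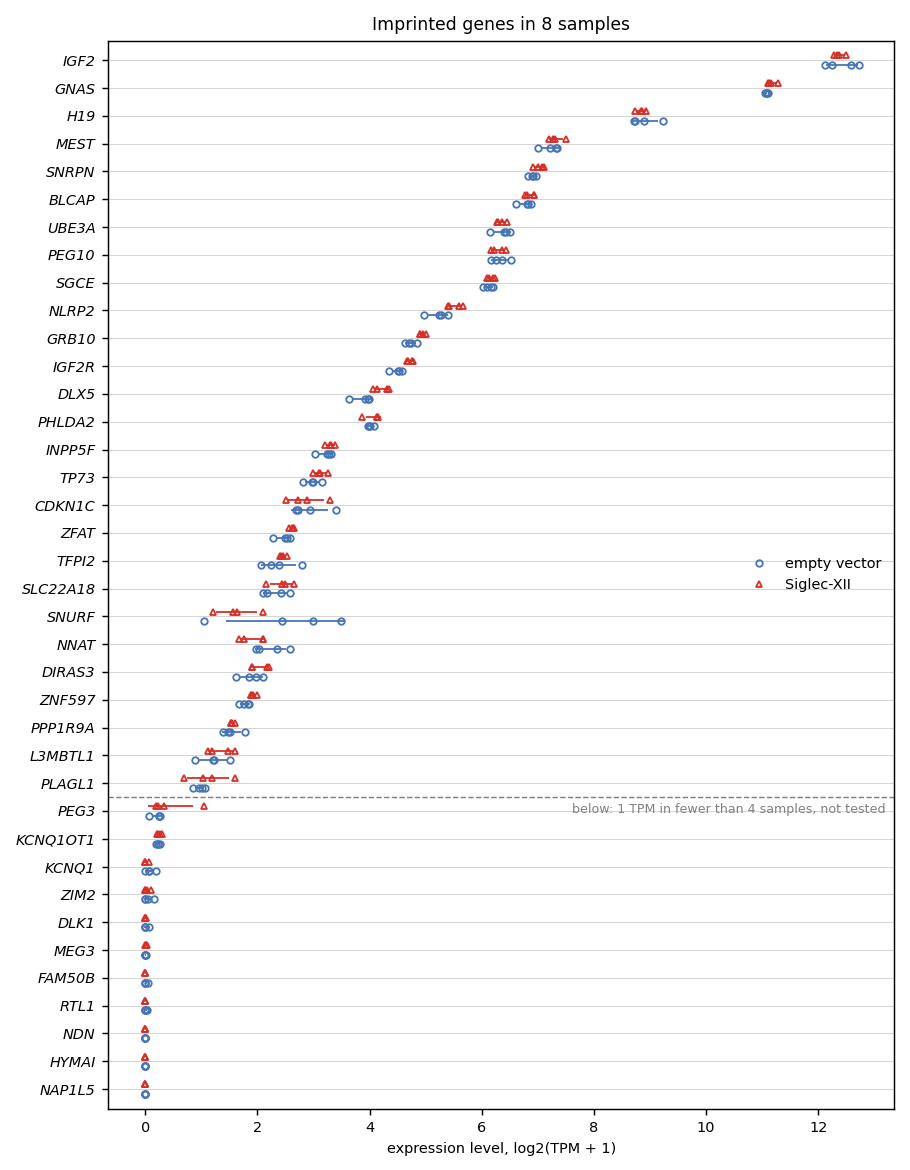
Expression level of the 38 imprinted genes as log2(TPM + 1) in the 4 empty vector samples (blue circles) and the 4 Siglec-XII samples (red triangles), with genes ordered by mean TPM and horizontal lines giving the mean ± SD of each group. IGF2, GNAS and H19 stand apart at the top, the 11 genes below the dashed line did not pass the filter, and SNURF is the gene with the widest spread.

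IGF2, the fetal growth factor of the insulin family, was the most abundant imprinted gene, and its rank among all entries lay between 8 and 14. Its level was 6739, 4854, 6166 and 4421 TPM in the empty vector samples and 5317, 5765, 5132 and 4975 TPM in the Siglec-XII samples. All 4 Siglec-XII values fell inside the range of the empty vector values, which varied more (5545 ± 1088 against 5297 ± 342 TPM, SD, n = 4). IGF2 lies on the minus strand of chromosome 11 (chr11:2150342-2179621 in GRCh37, as all gene positions below), and H19, a long non-coding RNA normally expressed from the other parental copy, lies beside it (chr11:2016396-2025782). H19 was at 603, 424, 475 and 421 TPM with the empty vector and at 458, 463, 423 and 487 TPM with Siglec-XII, again with overlapping groups. By these levels both genes were abundant in each of the 8 samples, and the ratio of IGF2 to H19 was 10.2 to 12.97. On the log2(TPM + 1) scale the IGF2 level exceeded that of H19 by 3.52 ± 0.13 (SD, n = 4) with the empty vector and by 3.53 ± 0.13 with Siglec-XII.

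The level assigned to IGF2 can include neighbouring RNAs. IGF2-AS, transcribed from the opposite strand across IGF2 exons, was listed at 60.9 to 81.9 TPM, and AC132217.1, a non-coding RNA on the same strand, at 38.2 to 77.1 TPM. In all, 11 of the 38 genes shared exon sequence positions with another gene of at least 1 TPM, 4 of them on the same strand and 8 on the opposite strand. The strand setting of the quantification is not given in the sources used here, so reads of opposite genes may not have been told apart.

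IGF2R (chr6:160390114-160534539) encodes the receptor that takes IGF2 up for breakdown in lysosomes. IGF2R was at 21.9, 22.8, 19.4 and 21.6 TPM with the empty vector and at 25.9, 24.6, 24.5 and 26.5 TPM with Siglec-XII. Every Siglec-XII sample was above every empty vector sample. GRB10 (chr7:50657760-50861159), an adaptor that dampens signalling from the insulin and IGF receptors, was at 23.6, 27.8, 25.2 and 25.7 TPM with the empty vector and at 28.7, 29.9, 28.7 and 31.1 TPM with Siglec-XII, also without overlap. The log2 difference between groups was 0.23 ± 0.06 (SE) for IGF2R and 0.20 ± 0.06 (SE) for GRB10, and neither passed the limma test (adjusted p = 0.139 and 0.165).

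GNAS (chr20:57414773-57486247), which encodes the stimulatory G protein alpha subunit and has several promoters with different imprinting, was second in abundance at ranks 45 to 67. It was at 2114, 2143, 2184 and 2160 TPM with the empty vector and at 2212, 2269, 2198 and 2481 TPM with Siglec-XII. The lowest Siglec-XII value lay just above the highest empty vector value, and the log2 difference was 0.09 ± 0.05 (SE; limma adjusted p = 0.388). It was 0.050 without Siglec-XII replicate 4, 0.016 with equal upper quartiles and 0.18 after quantile normalization. An entry adds up the products of all promoters, so those that are imprinted were not read separately. L3MBTL1, a chromatin reader of the polycomb family on the same chromosome arm, was at 0.850 to 1.85 TPM with the empty vector and 1.18 to 2.02 TPM with Siglec-XII.

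MEST (chr7:130126012-130146306), an alpha/beta hydrolase-fold protein expressed from the paternal copy, was at 128, 160, 147 and 159 TPM with the empty vector and 154, 156, 146 and 179 TPM with Siglec-XII. BLCAP and NNAT form a nested pair on chromosome 20, with NNAT (neuronatin, a small membrane protein of neurons and endocrine cells) inside BLCAP. BLCAP was at 97.05 to 116 TPM with the empty vector and 109 to 122 TPM with Siglec-XII. NNAT was at 2.95, 4.98, 3.06 and 4.09 TPM with the empty vector and at 3.30, 3.26, 2.18 and 2.39 TPM with Siglec-XII, with overlapping groups and a log2 difference of -0.33 ± 0.17 (SE; limma adjusted p = 0.370). The host BLCAP exceeded NNAT in all 8 samples, with a TPM ratio of 22.2 to 50.9.

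The cluster at 15q11 is known for Prader-Willi and Angelman syndromes. SNRPN (chr15:25068784-25223870), which encodes a splicing protein, was at 118, 112, 120 and 124 TPM with the empty vector and 119, 128, 134 and 138 TPM with Siglec-XII, and the lowest Siglec-XII sample lay inside the empty vector range. UBE3A, a ubiquitin ligase imprinted mainly in neurons, was at 69.8 to 89.5 TPM with the empty vector and 76.1 to 86.7 TPM with Siglec-XII, below SNRPN in 8 of 8 samples with an SNRPN to UBE3A ratio of 1.26 to 1.81. SNHG14, the long non-coding RNA that runs on from SNRPN and overlaps UBE3A on the opposite strand, was listed at 32.8 to 47.1 TPM. NDN, a MAGE family gene of the same cluster, was listed at 0 in all 8 samples.

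SNURF (chr15:25200134-25222997), the small upstream reading frame carried by the transcript of SNRPN, had the widest spread of the set. It was at 10.2, 1.08, 4.41 and 6.94 TPM with the empty vector and at 3.29, 2.10, 1.30 and 1.97 TPM with Siglec-XII. The empty vector values covered the whole range of the Siglec-XII values and more, and the log2 difference of -0.87 ± 0.45 (SE) did not pass the limma test (adjusted p = 0.373). Without empty vector replicate 2, the lowest of its group, the difference was -1.34 (adjusted p = 0.0649), and without replicate 1, the highest, it was -0.53 (adjusted p = 0.614). SNURF and SNRPN share exons on 1 strand, so the division of reads between them is uncertain. Their summed level was 128, 113, 125 and 131 TPM with the empty vector and 122, 130, 135 and 140 TPM with Siglec-XII, which varied 1.23-fold across the 8 samples where SNURF alone varied 9.44-fold. The sum was higher with Siglec-XII by 0.09 on the log2(TPM + 1) scale (exact permutation test, two-sided p = 0.257), so the sign found for SNURF alone was turned.

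In the second domain of 11p15, PHLDA2 and CDKN1C restrain placental and fetal growth, and CDKN1C (chr11:2904443-2907005) encodes the cyclin-dependent kinase inhibitor p57. PHLDA2 was at 14.9, 15.9, 15.1 and 14.7 TPM with the empty vector and at 13.6, 16.8, 16.6 and 16.6 TPM with Siglec-XII. Siglec-XII replicate 1 was the lowest of the 8 samples and the other 3 of its group were the highest. CDKN1C was at 5.44, 6.63, 5.56 and 9.59 TPM with the empty vector and at 4.67, 8.75, 5.59 and 6.42 TPM with Siglec-XII. It stayed below PHLDA2 in 8 of 8 samples, with a PHLDA2 to CDKN1C ratio of 1.53 to 2.96. SLC22A18, a membrane transporter between them, was at 3.30 to 4.98 TPM with the empty vector and 3.47 to 5.31 TPM with Siglec-XII. KCNQ1OT1, the non-coding RNA that silences this domain on the paternal copy, was listed at 0.146 to 0.234 TPM and KCNQ1, a potassium channel gene, at 0 to 0.143 TPM.

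CDKN1C also stood on a second entry with no counterpart in the annotation used, and in the empty vector group the spread shrank when both were added. The second entry was at 4.28, 3.40, 4.54 and 0.191 TPM with the empty vector and at 4.85, 2.94, 2.39 and 5.29 TPM with Siglec-XII, and it was lowest in the sample where the used entry was highest. The sum was at 9.71, 10.04, 10.1 and 9.78 TPM with the empty vector and at 9.52, 11.7, 7.98 and 11.7 TPM with Siglec-XII. With the empty vector its SD was 0.190 TPM, where that of the used entry was 1.93 TPM, while with Siglec-XII the SDs were 1.82 and 1.75 TPM. The group difference of CDKN1C was -0.08 on the log2 scale for the used entry and 0.03 for the sum. SLC22A18 had such a second entry as well, at 0.393 to 3.43 TPM, but its spread grew when both were added. Its sum varied 2.11-fold across the samples, where the used entry varied 1.61-fold. The log2 difference of SLC22A18 was 0.12 for the used entry and 0.20 for the sum.

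NLRP2 (chr19:55464498-55512510), a NOD-like receptor family gene that acts in the early embryo through the egg, stood on 10 entries with 3 distinct sets of values, of which 7 entries shared 1 set and 1 entry was in the annotation. The used entry was at 30.4, 37.4, 36.7 and 40.9 TPM with the empty vector and at 49.9, 47.4, 41.5 and 41.0 TPM with Siglec-XII, so the groups lay side by side without overlap. Its log2 difference was 0.30 ± 0.10 (SE; limma adjusted p = 0.189). Summed over the 10 entries the level was 284 ± 7.61 TPM (SD, n = 4) with the empty vector and 314 ± 11.6 TPM (SD, n = 4) with Siglec-XII. The log2 difference of the sum was 0.14, below that of the used entry, and it did not pass the limma test (adjusted p = 0.153). Every Siglec-XII sum lay above every empty vector sum. That alone sets the exact permutation test to the lowest value possible at this sample size (two-sided, unadjusted p = 0.0286). The sum places NLRP2 above MEST in level, whereas the used entry placed it below SGCE.

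**Figure D2:**
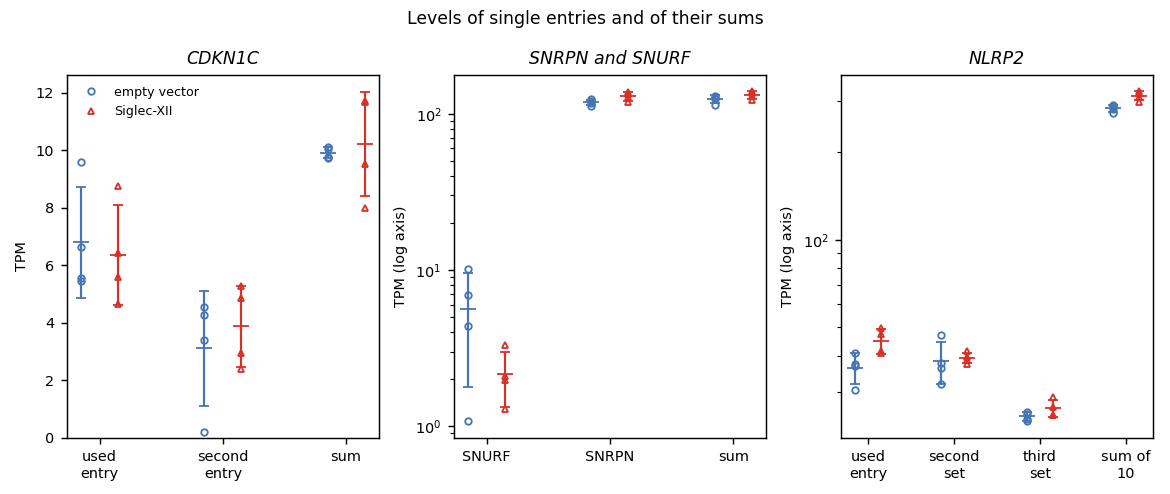
TPM of single entries and of their sums for CDKN1C (linear axis), for SNURF and SNRPN and for NLRP2 (log axes), in the 4 empty vector samples (blue circles) and the 4 Siglec-XII samples (red triangles), with the mean ± SD of each group. SNURF and both CDKN1C entries spread widely in the empty vector group, where the CDKN1C sum has an SD of 0.190 TPM, and the NLRP2 sums of the groups do not overlap.

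The other genes of chromosome 19 were low. PEG3, a zinc finger gene expressed from the paternal copy, did not pass the filter: it was at 1.07 TPM in Siglec-XII replicate 1 and at 0.0530 to 0.268 TPM in the other 7 samples. ZIM2, which shares its start with PEG3, was listed at 0 in 4 samples and reached 0.112 TPM.

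The cluster at 7q21 passed the filter with all 5 of its genes. PEG10 (chr7:94285637-94299007), derived from a retrotransposon and needed for the placenta, was at 91.2, 81.1, 75.7 and 70.4 TPM with the empty vector and 85.3, 70.4, 81.5 and 73.3 TPM with Siglec-XII. SGCE, the epsilon-sarcoglycan gene that starts head to head with PEG10, was at 63.8, 72.4, 67.3 and 70.8 TPM with the empty vector and 67.3, 68.9, 74.4 and 72.3 TPM with Siglec-XII. The ratio of PEG10 to SGCE was 0.994 to 1.43, and PEG10 was the higher in 7 of 8 samples. TFPI2, a protease inhibitor abundant in placenta, was at 3.19 to 5.95 TPM with the empty vector and 4.28 to 4.77 TPM with Siglec-XII. PPP1R9A, an actin scaffold of neurons, was at 1.61 to 2.45 and 1.90 to 2.03 TPM.

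DLX5 (chr7:96649708-96654262), a homeobox transcription factor of the same cluster, had the highest positive difference of the 27 genes. Its level was 14.8, 11.4, 14.8 and 14.03 TPM with the empty vector and 16.6, 19.3, 15.7 and 18.9 TPM with Siglec-XII. The groups did not overlap, and the log2 difference was 0.34 ± 0.10 (SE), a 1.26-fold higher level on the log2(TPM + 1) scale (limma adjusted p = 0.159).

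The remaining single genes and the pair at 6q24 had mean levels under 10 TPM. TP73, of the p53 family, was at 6.05 to 7.87 TPM with the empty vector and 6.93 to 8.62 TPM with Siglec-XII. INPP5F, a phosphoinositide phosphatase, was at 7.17 to 8.97 and 8.21 to 9.49 TPM, and ZFAT, a zinc finger gene, at 3.88 to 4.98 and 4.91 to 5.31 TPM. DIRAS3, a Ras-related growth inhibitor, was at 2.05 to 3.31 and 2.75 to 3.59 TPM. PLAGL1, a zinc finger gene that restrains proliferation, reached 1 TPM in 5 of 8 samples, with 2.02 TPM in Siglec-XII replicate 1 and 0.616 TPM in Siglec-XII replicate 3. HYMAI, the non-coding RNA that shares its promoter with PLAGL1, was listed at 0 in all 8 samples. ZNF597, a zinc finger gene, was at 2.62, 2.54, 2.40 and 2.18 TPM with the empty vector and at 2.96, 2.71, 2.68 and 2.77 TPM with Siglec-XII, without overlap. Its log2 difference of 0.14 ± 0.10 (SE) did not pass the limma test (adjusted p = 0.528).

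The cluster at 14q32 was the only one of several genes in which no gene passed the filter. DLK1, a membrane ligand of fetal tissues, was listed at 0 in 6 samples and reached 0.0429 TPM, MEG3, its maternally expressed non-coding RNA, was listed at 0 in 4 samples and reached 0.0219 TPM, and RTL1, derived from a retrotransposon and active in the placenta, was listed at 0 in 7 samples. FAM50B and NAP1L5, both expressed from the paternal copy, were listed at 0 in 7 and in all 8 samples. Of the 19 genes usually expressed from the paternal copy, 10 passed the filter, against 8 of 10 usually expressed from the maternal copy and 9 of 9 whose imprinting varies with tissue or promoter.

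Whether the set differed between groups was asked with limma over all 15590 entries that passed the filter. None of the 27 imprinted genes passed an adjusted p of 0.05, where 0.648% of all tested entries did (101 entries). The lowest adjusted p was that of IGF2R (0.139). At an unadjusted p under 0.05 there were 5 genes, all higher with Siglec-XII (DLX5, NLRP2, IGF2R, GRB10 and SNRPN), which is 18.5% of the 27 against 16.5% of all tested entries in either direction and 13.9% in this direction. No imprinted gene was lower at that limit, against 2.61% of all entries. The 27 genes therefore gave calls at close to the rate of all entries.

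Groups did not overlap for 6 imprinted genes, IGF2R, DLX5, GRB10, NLRP2, GNAS and ZNF597, all higher with Siglec-XII. This is 22.2% of the 27, against 10.8% of all tested entries in either direction and 9.17% higher with Siglec-XII. None was lower without overlap, against 1.68% of all entries. The count depended on how samples were scaled: 2 genes (IGF2R and GNAS) after quantile normalization and 1 (IGF2R) after scaling to equal upper quartiles, where the share of all entries was 7.87% and 6.28%. For a gene on 1 entry, only the 3 other scalings could make groups that lay apart overlap. IGF2R alone stayed free of overlap under all 3.

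By direction alone, 20 of the 27 genes (74.1%) were higher with Siglec-XII, against 68.1% of all tested entries. With equal upper quartiles these became 17 of 27 and 50.4%. The median log2 difference of the 27 genes was 0.09, beside 0.07 for all tested entries, and differences ran from -0.87 (SNURF) to 0.34 (DLX5). The median was 0.07 for the 10 tested genes usually expressed from the paternal copy, of which 6 were higher and 4 lower, 0.07 for the 8 maternal ones (6 higher, 2 lower) and 0.14 for the 9 variable ones (8 higher, 1 lower). The 95% interval of the difference spanned 0 for 22 genes, and for 20 it lay within -0.5 and 0.5. The widest was that of SNURF, from -1.88 to 0.15, and that of IGF2 ran from -0.33 to 0.24. The pooled SD between samples of a group had a median of 0.138 on the log2 scale for the 27 genes, the same as for all tested entries.

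**Figure D3:**
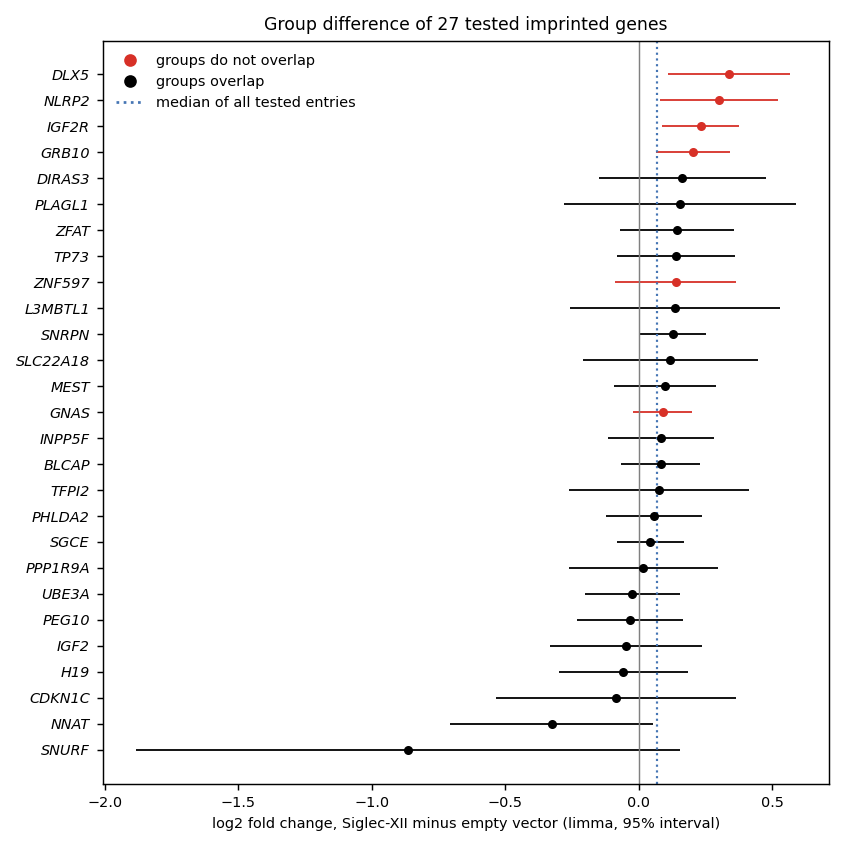
Log2 fold change (Siglec-XII minus empty vector, limma on log2(TPM + 1)) of the 27 tested imprinted genes with 95% intervals, in red where the groups did not overlap. The dotted line is the median of all tested entries, 0.07; the 6 genes in red lie at or above 0.09, and the intervals of 22 genes cross 0.

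Genes that set or read imprints were mostly expressed, each read from the entry of its symbol with the highest mean, without adding others. The entry used for ZFP57, whose motif was searched above, did not pass the filter, at 0 to 0.424 TPM. Of 27 such genes, 21 passed the filter, led by TRIM28, the co-repressor bound by imprint-reading zinc finger proteins, at a mean of 774 TPM, by the cohesin subunit RAD21 at 218 TPM and by the maintenance methyltransferase DNMT1 at 140 TPM. No gene of this list passed an adjusted p of 0.05, and none was lower at an unadjusted p under 0.05, where 5 of the 21 were higher (DNMT3B, DNMT3A, UHRF1, ARID4B and TET3), against 13.9% higher and 2.61% lower of all tested entries. By direction, 18 were higher and 3 (TRIM28, DNMT1 and SETDB1) lower, where 68.1% of all tested entries were higher. The median log2 difference of the list was 0.07, that of all entries. ARID4B, a chromatin factor reported at the 15q11 imprinting centre, had a log2 difference of 0.24 ± 0.09 (SE; limma adjusted p = 0.237), and NLRP7, a relative of NLRP2, one of 0.22 ± 0.13 (SE; limma adjusted p = 0.438).

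Around IGF2, 12 of 19 genes of the IGF axis passed the filter. IGFBP3, the main carrier of IGFs in blood, was at 233, 284, 229 and 244 TPM with the empty vector and at 192, 185, 175 and 196 TPM with Siglec-XII, without overlap. It fell by 0.40 ± 0.07 (SE) on the log2 scale (limma adjusted p = 0.0466), the only call in this list. The call was lost in 12 of 18 alternatives, with adjusted p from 0.0102 to 0.151 over all 18, while the difference stayed between -0.47 and -0.33. By direction, 10 of the 12 genes were higher and 2 (IGFBP3 and IGFBP5) lower, where 68.1% of all tested entries were higher. At an unadjusted p under 0.05, IGF2BP1, IGFBP2, IGFBP4, IRS1 and IRS2 were the 5 higher and IGFBP3 the 1 lower of the 12, against 13.9% higher and 2.61% lower of all tested entries, and the median log2 difference was 0.20, beside 0.07 for all entries. IGF1 and INS were listed at 0 in all 8 samples, so of these 3 ligands IGF2 alone was above 0. Its signalling receptor IGF1R was at 9.99 to 13.98 TPM with the empty vector and 10.1 to 16.6 TPM with Siglec-XII.

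**Figure D4:**
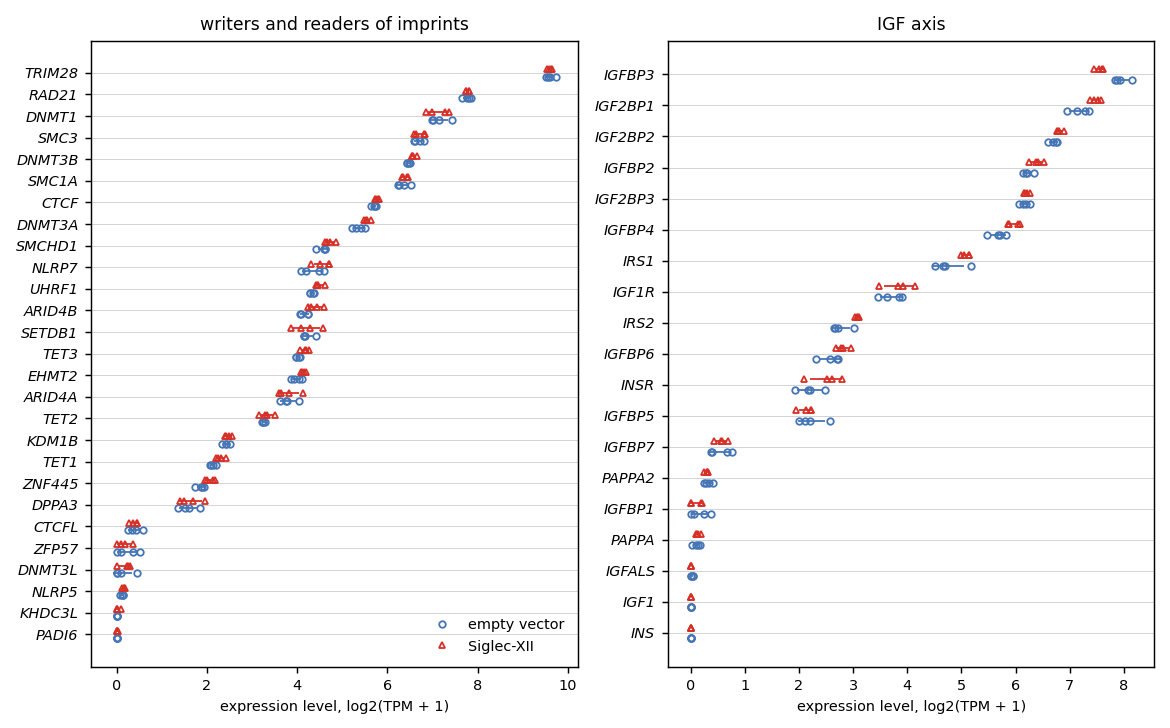
Expression level as log2(TPM + 1) of genes that set or read imprints (left) and of the IGF axis (right) in the 4 empty vector samples (blue circles) and the 4 Siglec-XII samples (red triangles), with lines for the mean ± SD. The groups lie close together for most genes; for IGFBP3 every Siglec-XII sample is below every empty vector sample, and IGF1 and INS are listed at 0.

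Genes next to the imprinted domains, mostly not known as imprinted, were read in the same way. Of 37 such genes, 28 passed the filter, led by CTSZ at a mean of 289 TPM, CTSD at 281 TPM and WARS at 219 TPM. None passed an adjusted p of 0.05. At an unadjusted p under 0.05 (limma), 8 of the 28 were higher and 1 (TUBGCP5, at -0.30 ± 0.06, SE) lower. Of all tested entries, 13.9% were higher and 2.61% lower at that limit, so the share higher was larger among these genes. By direction, 20 were higher and 8 lower, where 68.1% of all tested entries were higher. The median log2 difference of these genes was 0.08. MRPL23, a mitochondrial ribosomal protein gene near H19, had a log2 difference of 0.31 ± 0.12 (SE; limma adjusted p = 0.256).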

How the data were processed

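RNA-seq of 8 samples labelled Caco-2, 4 per group by the titles, was used. Per the labels, libraries came from total RNA with a strand-specific rRNA-depleting kit (the study's methods name a poly(A) kit). The authors quantified reads with kallisto (0.45.0 in the submitters' processing notes) against hg19 and deposited 1 table of log2(TPM + 1) for 63816 entries. Each TPM column summed to 1e+06. The files give no counts, so depth is unknown and no count test was used; low values carry more error.

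Gene positions came from GENCODE lifted to GRCh37 (86.9% of entries matched by ID) and sequences from RefSeq (GRCh38.p14). The group comparison used limma 3.58.1 (R 4.3.3; lmFit, eBayes with a mean-variance trend) on log2(TPM + 1) for the 15590 entries at 1 TPM or more in at least 4 samples, with Benjamini-Hochberg adjustment over all of them. The script was tested on simulated data. Differences are on the log2(TPM + 1) scale, which understates those of low genes. For sums of entries an exact permutation test was used, two-sided. Figures were drawn with matplotlib 3.10.9.

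The 38 genes and all lists (imprint writers and readers, IGF axis, domain neighbours, and markers of colon, trophoblast, fibroblast, blood, neural and liver cells) were chosen with earlier results of these data known. All 38 genes may be named, with SIGLEC12 and, of each list, the genes past an adjusted p of 0.05 or else the 3 highest in level and the 2 with the largest difference; any others were named after their values were seen. Of the fibroblast markers 5 of 8 passed the filter, of blood 2 of 6, of neural 2 of 6 and of liver 0 of 5, with summed levels of at most 89.1, 3.20, 29.0 and 0.947 TPM. Alternatives were a pseudocount of 0.1, other filters, 3 other scalings, a replicate block, no trend, small structured RNAs left out, entries of a symbol summed and each sample left out. The sum of SNRPN and SNURF was added after the data were seen.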

Additional observations from a re-analysis of the deposited data

Results flagged for a closer look

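PHLDA2 had a sample far from the others of its group. Siglec-XII replicate 1 was at 3.86 on the log2(TPM + 1) scale, where the other 3 samples of that group lay between 4.13 and 4.16, so that this gap made up 0.926 of the range of the group. In TPM it was at 13.6, and with its second entry added at 14.3, where the sums of the other 3 were 16.6 to 17.2. Of 54 groups examined (27 genes, each with both transfections), 1 had such a sample, and chance gives about 1 in 20.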

How the results depend on the processing

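None of the tested imprinted genes passed an adjusted p of 0.05 under any of the 18 alternatives with limma, where the lowest adjusted p was 0.0649. Under these alternatives 3 to 6 had an unadjusted p under 0.05. For that limit the share of all entries is given only for the main fit (16.5%). Over all entries the count of 101 became 51 with no filter, 54 with no mean-variance trend, 26 without small structured RNAs and 49 to 159 when single samples were left out (159 without empty vector replicate 2, and 49 to 64 without any other sample, each more than 1.5 times away). Of the 101, 52.5% were higher with Siglec-XII, against 32.6% of 86 after quantile normalization, 27.1% of 70 with equal upper quartiles, 33.3% of 72 without mitochondrial and the 100 most abundant entries, 73.1% of 26 without small structured RNAs and 69.8% of 159 without empty vector replicate 2. The labels share replicate numbers, but deviations of same-numbered samples correlated at only -0.07 to 0.06, so the numbers were not treated as pairing; with the replicate block there were 69 calls (26.1% higher), 0 imprinted genes among them, and the adjusted p of IGFBP3 was 0.0922.

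The count of 6 imprinted genes without overlap became 2 after quantile normalization and 1 with equal upper quartiles, beside 7.87% and 6.28% of all entries. It became 3 without mitochondrial and the 100 most abundant entries (which leaves out IGF2 and GNAS), beside 8.13% of all entries. When single samples were left out it was 6 to 9. The share of all entries, 10.8% in the main fit, also rose then, to 13.4% to 19.3%. The count was 9 without Siglec-XII replicate 1 and without empty vector replicate 2, where 14.6% and 19.3% of all entries did not overlap. The median difference of 0.09 became 0.018 with equal upper quartiles, 0.058 without mitochondrial and the 100 most abundant entries and 0.057 to 0.11 when single samples were left out. Of 476 comparisons of a gene with an alternative, 453 kept the direction, and 16 of 27 genes kept it throughout. Many of these agreements were fixed in advance. Other filters, the replicate block, no trend and leaving out small structured RNAs cannot change the difference of a gene. Nor can summing entries for a gene on 1 entry.

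Turned directions were all of small differences except that of SNURF, which became 0.087 when summed with SNRPN. After quantile normalization IGF2 became 0.072, SGCE -0.021, PHLDA2 -0.0078 and PPP1R9A -0.025. With equal upper quartiles SGCE became -0.028, PHLDA2 -0.012 and PPP1R9A -0.031, and without mitochondrial and the 100 most abundant entries PPP1R9A became -0.011. CDKN1C became 0.027 with its entries summed. With single samples left out, IGF2 ran from -0.15 to 0.054 (turned without empty vector replicates 1 and 3), H19 from -0.12 to 0.057 (empty vector replicate 1), UBE3A from -0.099 to 0.019 (Siglec-XII replicate 4 and empty vector replicate 2), PEG10 from -0.089 to 0.033 (Siglec-XII replicate 2 and empty vector replicate 1), CDKN1C from -0.23 to 0.072 (Siglec-XII replicate 1 and empty vector replicate 4), TFPI2 from -0.025 to 0.22 (empty vector replicate 4), PPP1R9A from -0.033 to 0.10 (empty vector replicates 1 and 2) and PLAGL1 from -0.0021 to 0.30 (Siglec-XII replicate 1). The cause was not tested.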
